A study of Mus musculus with 9 samples.

Results

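The organic anion and cation transporter genes described here are the Slc22a and Slco families of the mouse. They were taken by symbol, as every row of the count tables named Slc22a or Slco followed by the usual member number, which gave 40 genes (25 Slc22a and 15 Slco) of 52160 symbols. Counts came from whole kidney at 16 weeks of age in 3 groups of 3 libraries, all on a C57Bl/6N background. In ΔPod mice Ybx1, the gene of a Y-box protein that binds nucleic acids, was deleted in podocytes, which are the epithelial layer of the glomerulus. In K2A mice Ybx1 carried the substitutions K299A and K302A in exon 7, in podocytes only, per the labels, which removes both lysines through which acetylation leads to secretion of the protein. Wild-type (WT) mice were the controls, and a commercial supplier is named for them alone. The labels give no Cre driver, no sex and no statement that each library was a separate animal, so p-values measure the spread between these samples, which may be technical.

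Slc22a and Slco proteins move organic anions, cations, zwitterions, urate, carnitine, conjugated steroids, prostaglandins, toxins and drugs across membranes. In the proximal tubule, members in the basolateral membrane take such solutes up from blood, and other members and efflux pumps in the brush border pass them to or from the urine. Renal levels of several members are known to differ between male and female rodents. Transcripts of podocytes are a small part of whole kidney RNA, and in such bulk samples fewer cells of a type and less RNA per cell cannot be told apart.

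The libraries held 30776806 to 46852490 counts over the symbols used. Ybx1 itself stood at 1167, 881 and 605 CPM (CPM are counts normalised to library size with the TMM factors of edgeR) in ΔPod, 1078, 1152 and 554 CPM in K2A, and 1190, 1585 and 1185 CPM in WT, and neither difference passed (adjusted p = 0.465 and 0.725, edgeR). Transcripts of the Y chromosome (Kdm5d, Uty, Eif2s3y and Ddx3y) summed to 0 counts in each ΔPod library, to 22, 8 and 0 counts in K2A 1, 2 and 3, and to 3404 to 4148 counts in WT. Xist, the transcript of the inactive X chromosome, read 17 to 124 CPM in ΔPod, 30.6 to 331 CPM in K2A and 0 in the 3 WT libraries. In these libraries the difference between mutant and WT and the difference between female and male transcript patterns therefore coincide, and for every result against WT below the 2 cannot be told apart. The 20 proximal tubule markers summed to 35309 to 36787 CPM in ΔPod, 35781 to 49342 CPM in K2A and 67044 to 73439 CPM in WT. Abundant markers weigh most in such a sum. The median log2 fold change of these markers was -0.62 in ΔPod and -0.70 in K2A. Single markers ran from -4.99 to 0.87 and from -3.90 to 1.92, with 4 and 5 of 20 above 0. The libraries also differed in how counts depended on transcript length, measured as the slope of centred log2 CPM on log2 exonic length. It was above 0 in ΔPod 3, K2A 3, WT 1 and WT 3, where longer transcripts were higher, and below 0 in ΔPod 1 and 2, K2A 1 and 2 and WT 2, where shorter ones were higher. Adipocyte markers summed to 531, 140 and 23.1 CPM in ΔPod 1, 2 and 3, to 458, 1196 and 43.2 CPM in K2A 1, 2 and 3, and to 31.8 to 79.7 CPM in WT, and urothelium markers to 0.685 to 50.6, 9.95 to 105 and 5.71 to 10.6 CPM in the same groups. Their part in the results was not tested.

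The results turn most on a row of anion transporter genes on chromosome 19, on which the copies are so alike that their reads are hard to assign. On mm10 with the GENCODE vM21 annotation, Slc22a19, Slc22a26, Slc22a27, Slc22a28, Slc22a29 and Slc22a30 lie in this order on the minus strand, from the Slc22a19 gene at chr19:7673061-7711310 to the Slc22a30 gene at chr19:8335371-8405111. Slc22a27 lies at chr19:7864388-7966027, Slc22a28 at chr19:8062209-8131982 and Slc22a29 at chr19:8160165-8218900. The longest transcripts of Slc22a28 and Slc22a30 were 98.9% identical over 1485 aligned bases, and those of Slc22a27 and Slc22a29 were 96.8% identical over 2088 bases. Between the pairs, identity was 90.7 to 92.4%. The first 90 coding bases of the 4 genes, from GENCODE transcripts, show how the pairs are built, with capitals marking each base that differs from Slc22a29.
Slc22a29: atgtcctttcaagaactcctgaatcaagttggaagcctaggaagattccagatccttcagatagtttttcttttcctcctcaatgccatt
Slc22a27: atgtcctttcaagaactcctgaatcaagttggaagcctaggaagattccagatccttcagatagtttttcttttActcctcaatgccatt
Slc22a28: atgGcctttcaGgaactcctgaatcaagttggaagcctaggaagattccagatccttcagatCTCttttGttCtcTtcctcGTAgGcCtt
Slc22a30: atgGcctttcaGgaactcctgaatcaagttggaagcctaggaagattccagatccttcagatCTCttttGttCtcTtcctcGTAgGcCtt
Slc22a27 shared 89 of the 90 bases with Slc22a29, whereas Slc22a28 and Slc22a30 each shared 77 and carried the same differing bases. Of all 50-base stretches of the transcript, 53.9% in Slc22a28, 35.9% in Slc22a30, 30.5% in Slc22a27 and 30.5% in Slc22a29 also occurred in a transcript of another gene. How the authors counted reads that match several places is not given in the sources used here. The split of counts within each pair is therefore uncertain. Each of the 4 genes also shared such stretches with the other pair, so the split between the pairs is uncertain too.

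The windows around the annotated starts of the same 4 genes, from RefSeq on GRCm38.p6 (250 bases before and 50 after the start), are shown because the genes of a pair had fold changes of the same sign. They hold no match to the motifs searched and are printed in lower case.
Slc22a28, chr19:8131933-8132232, minus strand: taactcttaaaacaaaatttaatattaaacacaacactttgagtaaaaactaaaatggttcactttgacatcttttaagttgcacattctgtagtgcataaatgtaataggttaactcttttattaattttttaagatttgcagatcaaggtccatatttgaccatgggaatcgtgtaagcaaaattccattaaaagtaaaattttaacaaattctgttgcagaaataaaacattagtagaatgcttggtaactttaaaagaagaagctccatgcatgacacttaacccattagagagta
Slc22a30, chr19:8405056-8405355, minus strand: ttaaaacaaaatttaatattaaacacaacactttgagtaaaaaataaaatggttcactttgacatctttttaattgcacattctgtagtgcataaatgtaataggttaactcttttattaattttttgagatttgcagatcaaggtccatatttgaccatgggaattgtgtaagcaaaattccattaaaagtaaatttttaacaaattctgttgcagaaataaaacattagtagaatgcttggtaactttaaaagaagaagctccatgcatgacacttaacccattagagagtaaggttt
Slc22a29, chr19:8218851-8219150, minus strand: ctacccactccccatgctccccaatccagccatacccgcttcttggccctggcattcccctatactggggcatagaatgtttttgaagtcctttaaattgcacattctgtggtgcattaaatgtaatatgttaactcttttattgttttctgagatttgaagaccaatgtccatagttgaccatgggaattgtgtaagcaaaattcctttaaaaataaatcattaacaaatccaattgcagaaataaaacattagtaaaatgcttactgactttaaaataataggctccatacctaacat
Slc22a27, chr19:7965978-7966277, minus strand: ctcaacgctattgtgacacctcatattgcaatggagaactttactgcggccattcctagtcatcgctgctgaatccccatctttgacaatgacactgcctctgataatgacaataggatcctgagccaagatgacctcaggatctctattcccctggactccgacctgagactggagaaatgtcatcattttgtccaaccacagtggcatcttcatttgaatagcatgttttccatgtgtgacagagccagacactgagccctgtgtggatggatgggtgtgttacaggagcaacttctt
The Slc22a28 and Slc22a30 windows were 98.0% identical over 294 aligned bases, while Slc22a29 matched Slc22a30 at 79.3% and Slc22a28 at 75.1%. The Slc22a27 window matched that of Slc22a29 at 52.2% only, although their transcripts are near-identical. The STAT5 motif TTCNNNGAA, which is its own reverse complement, was found in 8 of 40 windows of 35 matched members (20.0%), against 8.30% of 32851 windows of all genes. The HNF4 motif CAAAGTCCA, searched on both strands, was found in 0 member windows, against 0.475%. In the 7 windows of the 6 genes that passed a test, neither motif was found. A match describes the letters of the window and is not evidence of a site.

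Members were tested in a single edgeR fit of all 9 libraries, in which 18067 genes passed the filter on low counts. Of the 40 members, 31 were tested and 9 were not. Slc22a20, Slco6c1, Slco6d1 and Slco6b1, which is annotated as a pseudogene, had 0 counts in all 9 libraries. Slco1a5, Slco1b2, Slco1c1, Slco5a1 and Slc22a16 had at most 6 counts in any library.

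All members together made up 0.247, 0.454 and 0.511% of counts in ΔPod 1, 2 and 3, 0.379, 0.376 and 0.535% in K2A 1, 2 and 3, and 0.914, 0.830 and 0.90% in WT 1, 2 and 3. Their summed level was 3965 ± 939 CPM in ΔPod, 4178 ± 855 CPM in K2A and 9019 ± 510 CPM in WT (SD, n = 3 each), and neither mutant group overlapped WT. The anion transporters of Slc22 carried most of this, with 2112 ± 680 CPM in ΔPod, 2378 ± 827 CPM in K2A and 5522 ± 288 CPM in WT. The carnitine transporters stood at 247 ± 29.8, 269 ± 49.5 and 259.5 ± 14.8 CPM in ΔPod, K2A and WT. These sums were not tested.

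Per length of transcript, Slc22a12, the Urat1 gene, averaged 320 CPM per kilobase of exon in ΔPod and Slc22a18 174, with overlapping ranges. In K2A, Slc22a12 averaged 465 and Slc22a18 141 CPM per kilobase, and their ranges did not overlap. In WT, Slc22a12 stood alone at 1281 CPM per kilobase (range 1150 to 1414). Slc22a18 at 445 and Slc22a6 at 323 CPM per kilobase lay below it in WT, and their ranges overlapped. Slc22a2, Slc22a7, Slc22a8, Slco1a1, Slc22a28 and Slco1a6 followed in WT at 173 to 84.9 CPM per kilobase, again with overlapping ranges between neighbours. Among the 31 tested members Slc22a29 ranked 12th in ΔPod, 13th in K2A and 24th in WT, and Slco1a1 ranked 31st, 27th and 8th in the same groups.

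**Figure D1:**
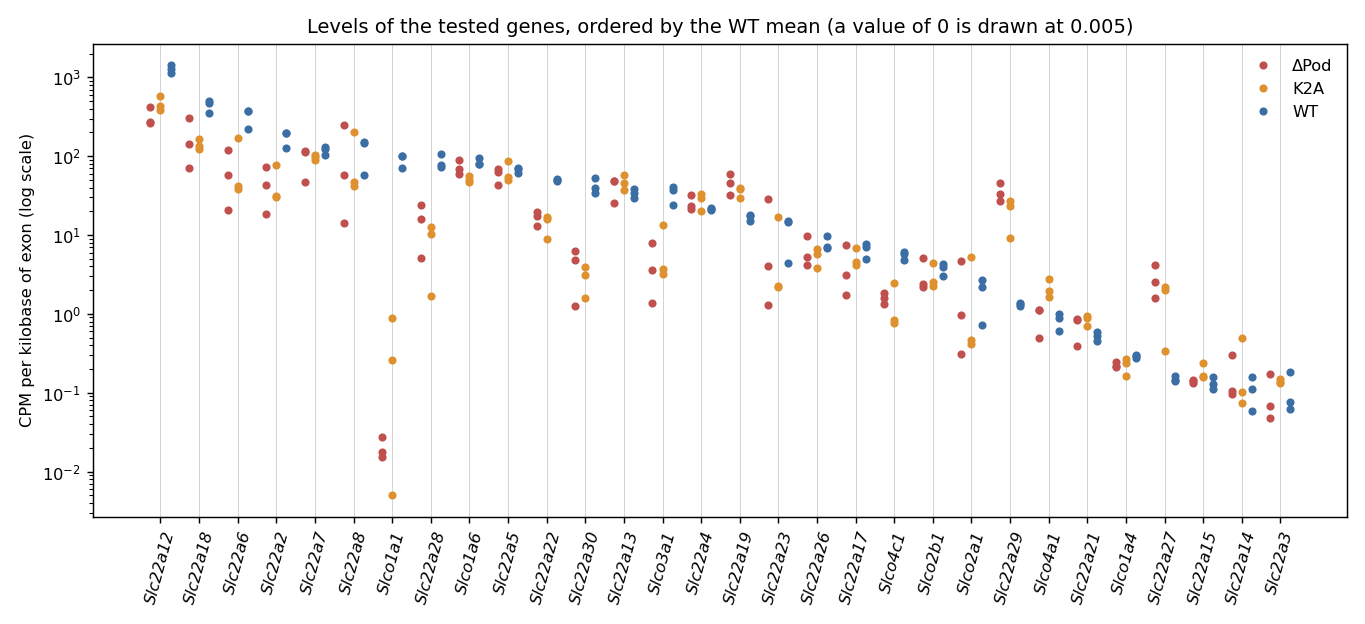
Level of the tested genes reported here, in CPM per kilobase of exon on a log axis, with 1 point for each library and genes ordered by the WT mean. Slco1a1 is the lowest gene in ΔPod and among the abundant ones in WT, and Slc22a29 stands far above WT in both mutants; Slc22a12 leads in K2A and WT.

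In ΔPod kidneys, 5 of 31 tested members differed from WT at an adjusted p under 0.05, against 0.985% of all genes tested. The anion transporter genes Slc22a29 and Slc22a27 rose, and the urate transporter gene Slc22a12, the anion transporter gene Slc22a30 and the Oatp1a1 gene Slco1a1 fell. A further 8 members had an unadjusted p under 0.05 and did not pass, so that 13 of 31 lay under that level, against 13.8% of all genes. For 14 of 31 members the 3 ΔPod libraries did not overlap the 3 WT libraries, 3 of them higher and 11 lower, against 18.2% of all genes. The median log2 fold change of the tested members was -0.22, and that of all genes 0.08.

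In K2A kidneys, 3 of 31 tested members differed from WT, against 0.847% of all genes. Slc22a29 rose, and Slc22a30 and Slc22a22, a prostaglandin transporter gene, fell. An unadjusted p under 0.05 was found for 15 of 31 members, against 10.6% of all genes, and 20 members did not overlap WT, 6 higher and 14 lower, against 20.1%. The median log2 fold change was -0.31 over the members and 0.09 over all genes. Both mutants are compared with the same WT libraries, so the 2 sets of values are not independent.

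**Figure D2:**
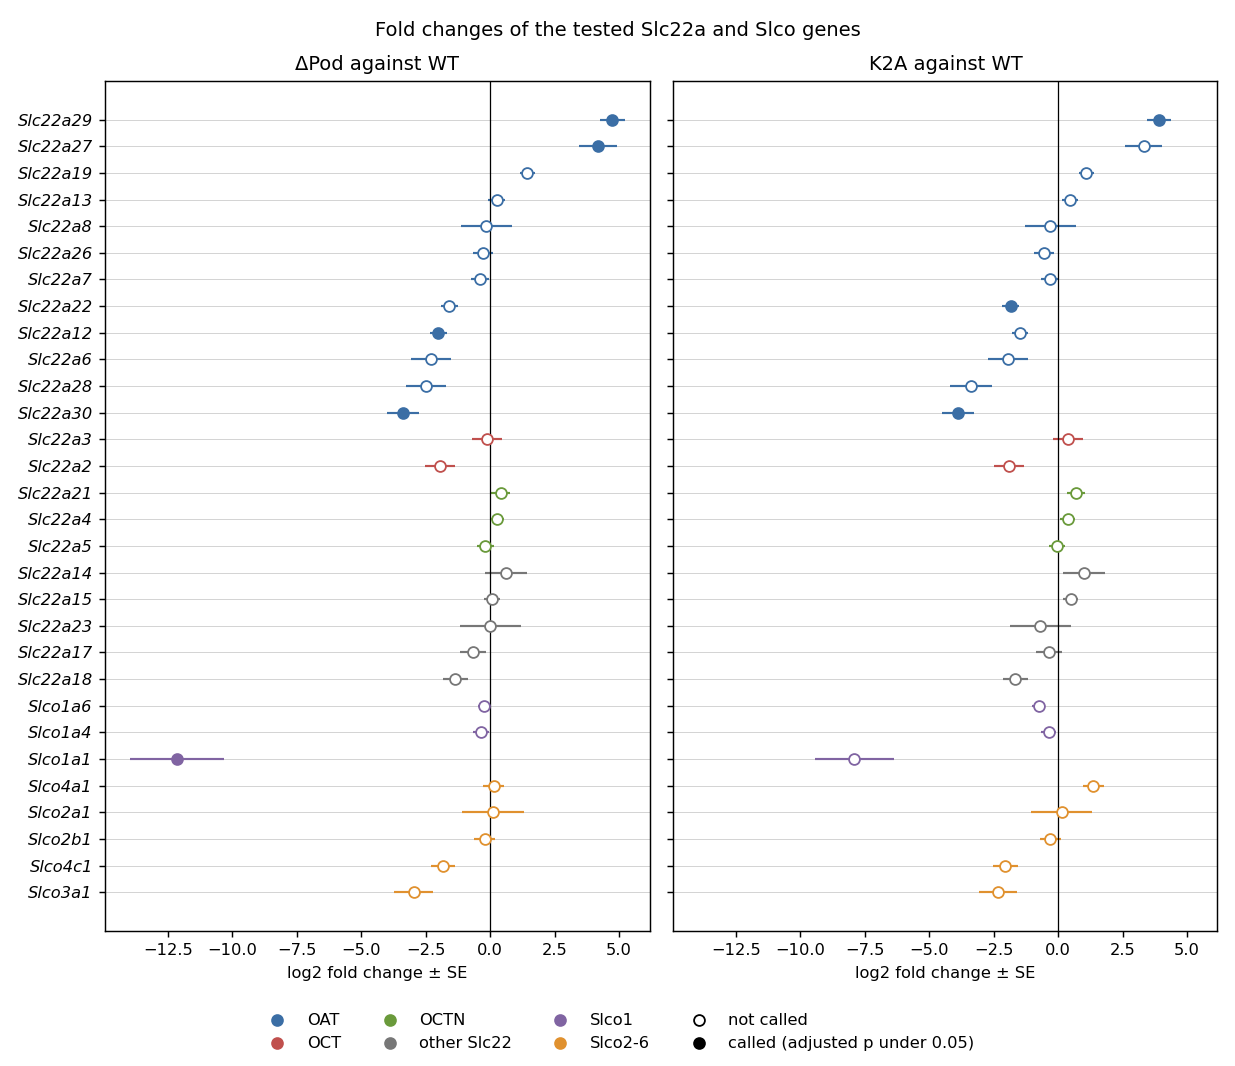
Log2 fold change with its standard error for the tested genes reported here in ΔPod against WT (left) and K2A against WT (right), by family group; filled points passed the test. Slc22a29 and Slc22a27 stand highest and Slco1a1 lowest in both panels.

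Within the anion transporters of Slc22, 2 of 12 tested genes rose and 2 fell in ΔPod, and 1 rose and 2 fell in K2A. Of all 18067 tested genes, 72 rose and 106 fell in ΔPod, and 58 rose and 95 fell in K2A. The rising Slc22a27 and Slc22a29 are near-identical copies and may not be separate rises. Slc22a29 read 103, 76.2 and 61.1 CPM in the ΔPod libraries, 53.6, 61.5 and 20.8 CPM in the K2A libraries, and 3.02, 3.12 and 2.82 CPM in the WT libraries. Every mutant library was well above every WT library. The log2 fold change was 4.74 ± 0.48 (SE) in ΔPod (adjusted p = 0.0061, edgeR) and 3.92 ± 0.46 in K2A (adjusted p = 0.0128). Mean levels were 26.8 times WT in ΔPod and 15.2 times WT in K2A. The direction was the same within each length class. With the 4 libraries of higher long transcripts, the log2 fold change was 4.40 in ΔPod and 2.84 in K2A. With the other 5 it was 4.79 and 4.17. Each mutant is a lone library in the first class and WT is a lone library in the second, so these values are given without a call.

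Slc22a27 is the near-identical copy of Slc22a29, and Slc22a28 lies between them. Slc22a27 read 8.97, 5.53 and 3.43 CPM in ΔPod kidneys and 4.68, 4.36 and 0.726 CPM in K2A kidneys. WT kidneys read 0.305, 0.315 and 0.346 CPM. No mutant library reached down to WT, and K2A 3 was the closest. It rose by 4.20 ± 0.73 on the log2 scale in ΔPod (adjusted p = 0.0424), and the difference in K2A was 3.32 ± 0.71 (adjusted p = 0.0881). With the counts of Slc22a27 and Slc22a29 added before the fit, so that their split no longer mattered, the pair read 86.0 ± 23.9 CPM in ΔPod, 48.5 ± 23.7 CPM in K2A and 3.31 ± 0.137 CPM in WT (SD, n = 3 each). The pair rose in both mutants, by 4.70 ± 0.49 in ΔPod (adjusted p = 0.0072, edgeR) and by 3.87 ± 0.47 in K2A (adjusted p = 0.014). Slc22a29 supplied most of the pair in every library, so this fit nearly repeats that of Slc22a29 alone (4.74 and 3.92). The sum is therefore no separate test of Slc22a27, which did not pass in K2A. The sum also does not settle the assignment of reads shared with Slc22a28 and Slc22a30.

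Slc22a30 read 21.0, 16.3 and 4.29 CPM in the ΔPod libraries, 13.1, 10.6 and 5.42 CPM in the K2A libraries, and 115, 181 and 133 CPM in the WT libraries, with no overlap. It fell by 3.37 ± 0.62 on the log2 scale in ΔPod (adjusted p = 0.0489) and by 3.88 ± 0.63 in K2A (adjusted p = 0.0325). Slc22a28 is its near-identical copy, with Slc22a29 between them. Slc22a28 read 48.9, 32.0 and 10.2 CPM in ΔPod kidneys and 25.7, 20.6 and 3.39 CPM in K2A kidneys. It read 147, 213 and 156 CPM in WT kidneys, also without overlap. Its log2 fold change of -2.50 ± 0.77 in ΔPod and -3.38 ± 0.80 in K2A did not pass (adjusted p = 0.245 and 0.124). With both genes added before the fit, the pair read 44.2 ± 27.9 CPM in ΔPod, 26.3 ± 15.6 CPM in K2A and 315 ± 69.2 CPM in WT. The summed pair did not pass, at -2.83 ± 0.69 in ΔPod (adjusted p = 0.124, edgeR) and -3.58 ± 0.71 in K2A (adjusted p = 0.0689). Slc22a28, which did not pass alone, made up the larger part of the mean sum in each group. It averaged 30.4 CPM in ΔPod, 16.6 CPM in K2A and 172 CPM in WT, against 13.8, 9.69 and 143 CPM for Slc22a30. In K2A 3 alone Slc22a30 was the higher, at 5.42 against 3.39 CPM. Whether the split of reads within the pair, or between the pairs, played a part in the calls of Slc22a30 was not tested. In each mutant group the library in which long transcripts were higher, replicate 3, held the lowest level of all 4 genes.

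**Figure D3:**
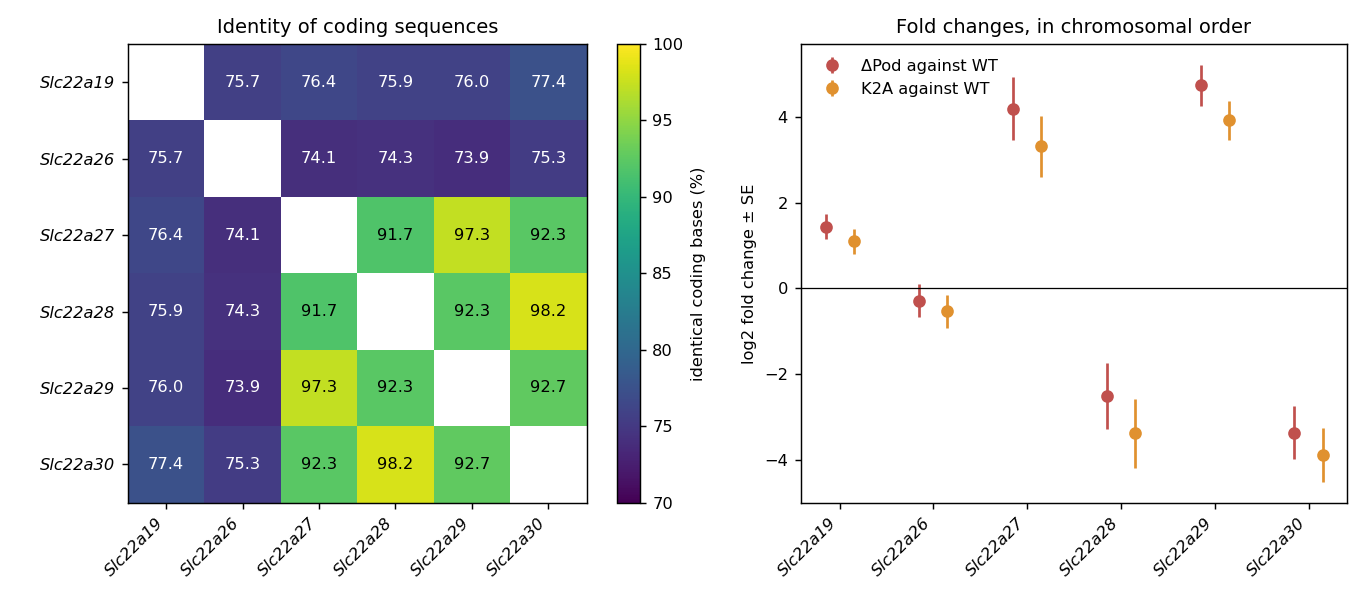
Percentage of identical coding bases between the 6 neighbouring genes (left) and their log2 fold change against WT with its standard error (right), both in chromosomal order. Slc22a27 and Slc22a29 share 97.3% of coding bases and lie above 0, while Slc22a28 and Slc22a30 share 98.2% and lie below 0.

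The other genes in the row, Slc22a19 and Slc22a26, were less alike and less changed. Slc22a19 encodes the anion exchanger Oat5 of the brush border. It read 245, 321 and 174 CPM in the ΔPod libraries, 206, 215 and 162 CPM in the K2A libraries, and 96.2, 94.0 and 81.9 CPM in the WT libraries, and no mutant library overlapped WT. The log2 fold changes of 1.44 ± 0.29 in ΔPod and 1.1 ± 0.29 in K2A did not pass (adjusted p = 0.0693 and 0.172). Slc22a26, next to it, had log2 fold changes of -0.28 and -0.53.

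Slc22a12 encodes Urat1, which takes urate back up from the tubular fluid. It read 595, 962 and 612 CPM in ΔPod kidneys, 989, 865 and 1305 CPM in K2A kidneys, and 2897, 3201 and 2601 CPM in WT kidneys. All mutant libraries were below all WT libraries, and ΔPod and K2A overlapped. It fell in ΔPod, with a log2 fold change of -2.0 ± 0.32 (adjusted p = 0.0299), and in K2A the difference of -1.46 ± 0.31 did not pass (adjusted p = 0.0883). Its exons share 682 bases with Nrxn2 on the opposite strand, and without a stated strand setting those reads cannot be told apart.

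Slc22a22 encodes OAT-PG, a prostaglandin transporter of the mouse kidney. It read 47.8, 42.0 and 32.1 CPM in the ΔPod libraries, 41.1, 39.2 and 21.5 CPM in the K2A libraries, and 118, 125 and 121 CPM in the WT libraries, and the mutant libraries lay far below WT. It fell by 1.84 ± 0.32 on the log2 scale in K2A (adjusted p = 0.0434) and was at -1.58 ± 0.32 in ΔPod (adjusted p = 0.067).

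Slc22a6 and Slc22a8 encode Oat1 and Oat3, the main basolateral uptake carriers for organic anions. Slc22a6 read 81.8, 227 and 479 CPM in ΔPod kidneys, 167, 153 and 682 CPM in K2A kidneys, and 1483, 874 and 1497 CPM in WT kidneys. The groups did not overlap, but in each group the libraries with higher long transcripts were highest. The log2 fold changes of -2.29 ± 0.78 in ΔPod and -1.94 ± 0.77 in K2A did not pass (adjusted p = 0.282 and 0.393). With the 4 libraries of higher long transcripts alone, which are 1 ΔPod, 1 K2A and 2 WT libraries, the differences were -1.63 and -1.11. A lone library has no spread of its own, so these values are given without a call. With the other 5 libraries, of which 1 is WT, they were -2.54 and -2.49.

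Slc22a8 read 55.3, 224 and 972 CPM in the ΔPod libraries, 162, 183 and 782 CPM in the K2A libraries, and 587, 224 and 583 CPM in the WT libraries. The groups overlapped, and the spread within a mutant group was far wider than the difference between groups, at -0.15 ± 0.99 in ΔPod and -0.31 ± 0.99 in K2A (adjusted p = 0.939 and 0.923). Within the libraries of higher long transcripts, again 1 of each mutant and 2 of WT, the differences of Slc22a8 were 0.75 in ΔPod and 0.43 in K2A, and within the other 5 they were -0.72 and -0.42. The signs differed between the classes of library, and that difference was not tested. The neighbouring genes Slc22a8 and Slc22a6, at chr19:8591254-8611835 and chr19:8618039-8628299, thus gave unlike values.

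Slc22a7, which encodes Oat2, read 97.5, 237 and 241 CPM in ΔPod kidneys, 186, 204 and 218 CPM in K2A kidneys, and 276, 261 and 219 CPM in WT kidneys. ΔPod overlapped WT, K2A lay just under it, and neither difference passed (-0.39 and -0.31). Slc22a13, which encodes Oat10, known from human as a urate and nicotinate exchanger, read 50.4, 96.6 and 95.8 CPM in the ΔPod libraries, 73.7, 92.5 and 114 CPM in the K2A libraries, and 76.2, 59.4 and 67.8 CPM in the WT libraries, with overlap in both comparisons. Of its 50-base stretches 36.0% also occur in the pseudogene Slc22a13b-ps.

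**Figure D4:**
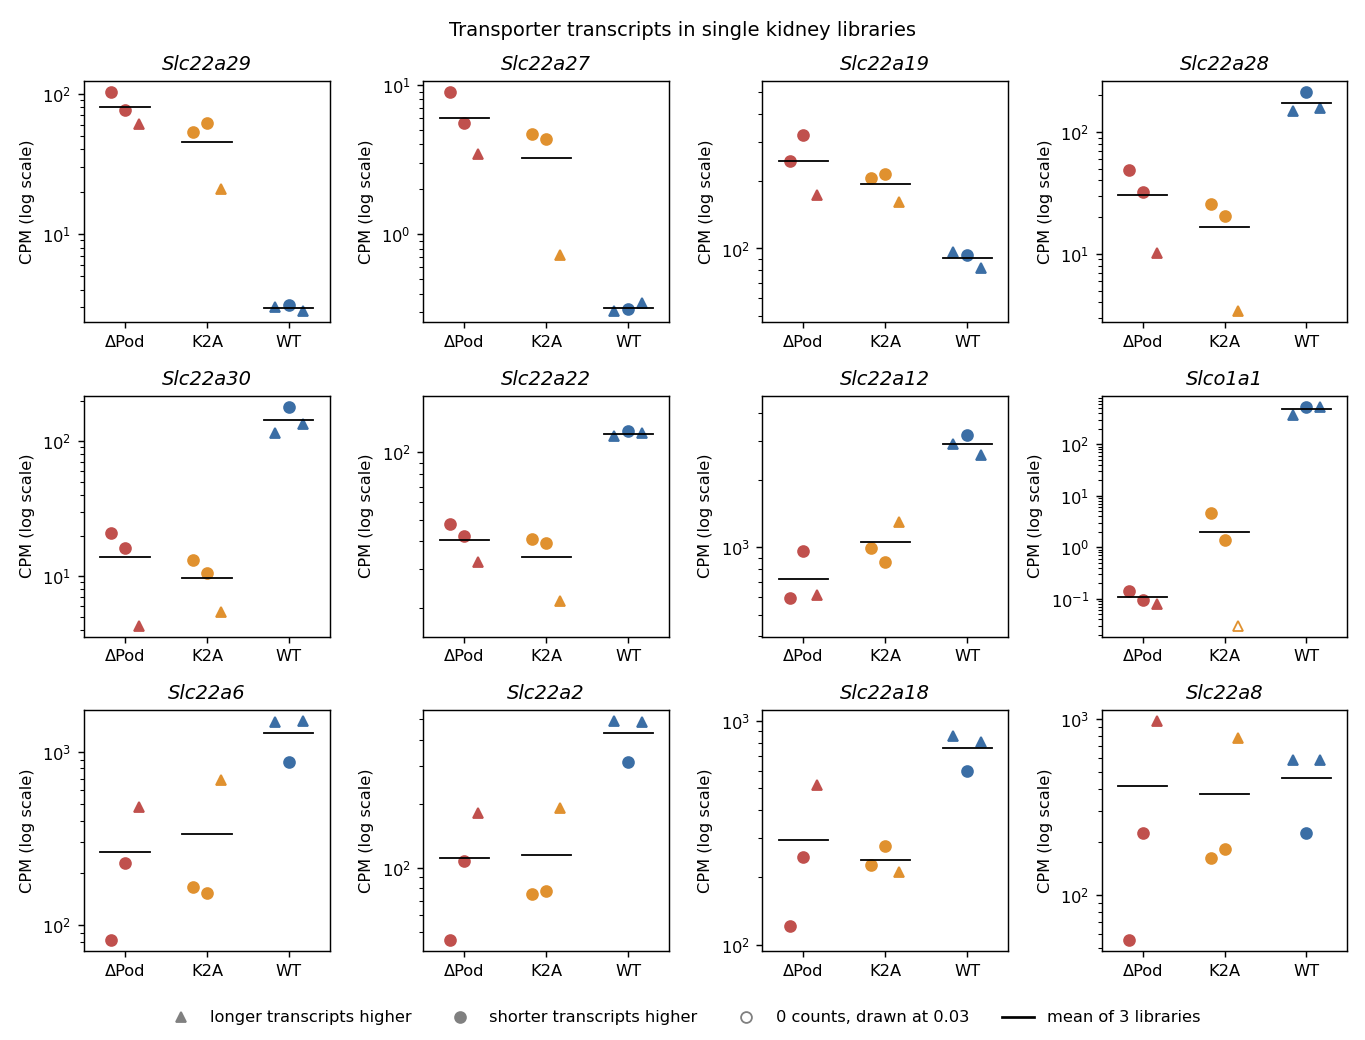
CPM of 12 members in each library on log axes that differ between panels, with the mean of 3 libraries as a bar; triangles are libraries in which longer transcripts were higher, circles the others, and the open symbol is the K2A library with 0 counts of Slco1a1. Slc22a29 and Slc22a27 are among the genes higher in all mutant libraries. Slc22a28, Slc22a30, Slc22a22, Slc22a12 and Slco1a1 are among those lower in all of them.

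Among the organic cation transporters, 0 of 3 tested genes passed in either comparison, and 1 of 3 (Slc22a2) had an unadjusted p under 0.05. Slc22a2 encodes Oct2, a basolateral carrier that takes up organic cations such as metformin. It read 45.5, 107 and 180 CPM in ΔPod kidneys, 75.1, 77.5 and 191 CPM in K2A kidneys, and 488, 315 and 483 CPM in WT kidneys, and all mutant libraries lay below WT. The log2 fold changes of -1.95 ± 0.57 in ΔPod and -1.90 ± 0.57 in K2A did not pass (adjusted p = 0.221 and 0.23). With the 4 libraries of higher long transcripts, 1 of each mutant and 2 of WT, they were -1.41 and -1.33, given without a call. Slc22a3, which encodes Oct3, stayed at 0.217 to 0.815 CPM over all libraries.

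Of the carnitine and zwitterion transporters, 0 of 3 tested genes passed and 0 had an unadjusted p under 0.05. Slc22a5 encodes Octn2, which recovers carnitine from the tubular fluid. It read 130, 193 and 213 CPM in ΔPod kidneys, 152, 166 and 270 CPM in K2A kidneys, and 214, 187 and 208 CPM in WT kidneys, with overlap and differences of -0.18 ± 0.31 and -0.05 ± 0.31 (adjusted p = 0.762 and 0.958). Slc22a4, the ergothioneine transporter gene, had log2 fold changes of 0.26 and 0.37. Slc22a21, a carnitine transporter gene that shares 24.2% of its 50-base stretches with Slc22a5 and Slc22a4, had log2 fold changes of 0.41 and 0.69.

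The other Slc22 members, Slc22a14, Slc22a15, Slc22a17, Slc22a18 and Slc22a23, were all tested and 0 of 5 passed. Slc22a18, an imprinted gene, read 122, 246 and 518 CPM in the ΔPod libraries, 228, 277 and 211 CPM in the K2A libraries, and 858, 599 and 811 CPM in the WT libraries, and the mutant libraries lay below WT. Its log2 fold changes were -1.36 ± 0.49 in ΔPod and -1.66 ± 0.49 in K2A (adjusted p = 0.303 and 0.222). Slc22a23 ran from 8.32 to 185 CPM within ΔPod, which was a wider range than that between any 2 group means. Slc22a17, known as a lipocalin receptor gene, had log2 fold changes of -0.68 and -0.34.

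The 4 members Slc22a8, Slc22a14, Slc22a23 and Slco2a1 were over 2 times higher in the libraries of higher long transcripts in all 3 groups. This difference between library classes was not tested for single members, nor set against each member's own length. For Slco2a1, the prostaglandin transporter gene, the ratio was 7.44 in ΔPod, 12 in K2A and 3.38 in WT. For Slc22a23 it was 10.8, 7.47 and 3.33 in the same groups. Of the 31 tested members, 13 were higher and 8 lower in these libraries in every group, and 10 were mixed. The same counts were not made over all genes, and the classes themselves rest on the slope over all tested genes. The counts therefore cannot be read as a trait of the members.

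**Figure D5:**
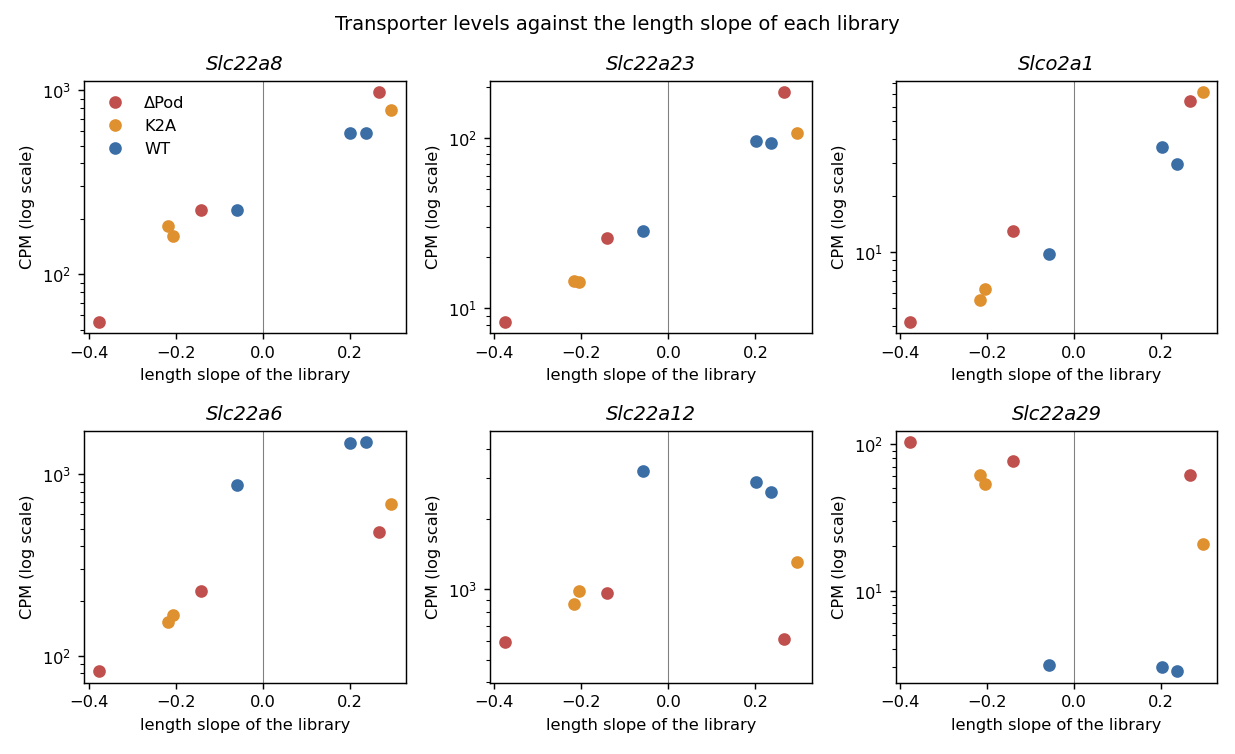
CPM of 6 members on log axes against the length slope of each library, the slope of centred log2 CPM on log2 exonic length. Slc22a8, Slc22a23 and Slco2a1 tend to be higher where the slope is higher across all 9 libraries. Slc22a6 does so with the mutants below WT, and Slc22a12 and Slc22a29 separate every mutant library from every WT library. The lowest WT slope was -0.058, in WT 2. ΔPod 1 and 2 and K2A 1 and 2 lay below it, where no WT library can be compared.

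Among the Slco1 genes, 1 of 3 tested genes fell in ΔPod and 0 passed in K2A. Slco1a1 encodes Oatp1a1, a brush border carrier of conjugated steroids and bile acids, and was the member with the widest range. It read 0.145, 0.0938 and 0.0806 CPM in ΔPod, which is 4 counts in each library, and 4.68, 1.36 and 0 CPM in K2A, which is 151, 46 and 0 counts. WT libraries held 374, 526 and 537 CPM. WT thus exceeded every mutant library by far, and the K2A libraries differed strongly from each other. Slco1a1 fell by 12.14 ± 1.82 on the log2 scale in ΔPod (adjusted p = 0.0225), and the difference in K2A was -7.90 ± 1.52 (adjusted p = 0.0597). Relative to the mean of WT, K2A 1, 2 and 3 held 0.977, 0.285 and 0% of Slco1a1, and 0.649, 0.226 and 0% of the summed Y-linked transcripts; the part of this in the K2A result was not tested. The window around its annotated start, shown because the gene was the most reduced member, held no match to either motif.
Slco1a1, chr6:141946913-141947212, minus strand: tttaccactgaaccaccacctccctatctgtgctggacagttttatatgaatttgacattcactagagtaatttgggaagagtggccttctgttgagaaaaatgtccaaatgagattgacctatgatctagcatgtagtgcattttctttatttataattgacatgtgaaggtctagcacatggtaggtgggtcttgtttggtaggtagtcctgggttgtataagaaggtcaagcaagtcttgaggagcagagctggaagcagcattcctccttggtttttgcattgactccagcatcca
Slco1a6, which in WT was the next Slco1 gene below Slco1a1 per length and in both mutants ranked above it, read 263, 338 and 228 CPM in ΔPod kidneys, 178, 211 and 187 CPM in K2A kidneys, and 306, 307 and 357 CPM in WT kidneys. K2A lay below WT in all libraries, ΔPod overlapped it, and the differences of -0.23 ± 0.25 and -0.75 ± 0.25 did not pass (adjusted p = 0.646 and 0.289). Slco1a4, known from the blood-brain barrier and liver, was at 1.04 to 1.92 CPM over all libraries. The coding sequences of Slco1a1 and Slco1a6 were 83.6% identical, and 2.26% of the 50-base stretches of Slco1a1 occurred in another gene, fewer than in the row on chromosome 19.

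Of Slco2 to Slco6, 0 of 5 tested genes passed in either comparison. Slco3a1 had a log2 fold change of -2.96 ± 0.77 in ΔPod (adjusted p = 0.155) and -2.33 ± 0.75 in K2A (adjusted p = 0.263). Slco4c1, a basolateral carrier of digoxin and thyroid hormone in the rat and human kidney, had log2 fold changes of -1.82 ± 0.47 and -2.04 ± 0.47 (adjusted p = 0.154 and 0.113). Slco4a1, a thyroid hormone transporter gene, had log2 fold changes of 0.14 ± 0.40 in ΔPod and 1.36 ± 0.40 in K2A (adjusted p = 0.862 and 0.227). Slco2a1 and Slco2b1 overlapped between groups.

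Between the mutants, 0 of 31 tested members differed at an adjusted p under 0.05 by edgeR, as did 0% of all genes. DESeq2 called 13 genes, with 0 members among them. An unadjusted p under 0.05 was found for 2 members, Slco1a1 at 4.24 ± 1.41 and Slco4a1 at 1.22 ± 0.40 for K2A over ΔPod, against 364 of all genes (2.01%). The 3 K2A libraries did not overlap the 3 ΔPod libraries for Slco1a6, Slco4a1 and Slc22a15, against 5.11% of all genes. The difference for Slc22a29 was -0.82 ± 0.41, that for Slc22a12 0.54 ± 0.31 and that for Slc22a30 -0.51 ± 0.56. These standard errors do not show that the mutants were alike.

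The genes that work with these transporters were read in the same fit. Of 18 tested partner transporters (efflux pumps, MATE, dicarboxylate and urate carriers, and sodium pump subunits), 1 rose and 0 fell in either mutant. This was Abcb1b, which encodes a multidrug P-glycoprotein. It read 29.1, 29.9 and 27.2 CPM in the ΔPod libraries, 23.5, 26.6 and 29.4 CPM in the K2A libraries, and 4.74, 3.61 and 4.30 CPM in the WT libraries, with no overlap. Abcb1b rose by 2.77 ± 0.26 in ΔPod (adjusted p = 0.00536) and by 2.65 ± 0.25 in K2A (adjusted p = 0.00853).

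Of 21 tested scaffolds and regulators known for these transporters, including Pdzk1, Hnf4a and Stat5b, 1 rose and 0 fell in either mutant. This was Prlr, the prolactin receptor gene. It read 73.5, 131 and 208 CPM in ΔPod kidneys, 82.7, 90.5 and 154 CPM in K2A kidneys, and 14.7, 6.53 and 18.7 CPM in WT kidneys, again with every mutant library above WT. Prlr rose by 3.37 ± 0.55 in ΔPod (adjusted p = 0.0313) and by 3.03 ± 0.54 in K2A (adjusted p = 0.0495). The regulator gene Hnf4a read 191, 419 and 1030 CPM in the ΔPod libraries, 454, 498 and 976 CPM in the K2A libraries, and 994, 806 and 1003 CPM in the WT libraries, with overlap in both comparisons.

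The number of calls moved with single libraries. In ΔPod against WT, leaving out ΔPod 1, ΔPod 2, K2A 2 or WT 2 left 1 called member, leaving out K2A 1 left 2, leaving out WT 1 or WT 3 left 0, and leaving out ΔPod 3 or K2A 3 gave 7. In K2A against WT, leaving out K2A 1, K2A 2 or any WT library left 0, and leaving out ΔPod 2 left 1. Leaving out K2A 3 gave 5, of which 2 were among the 3 of the main fit. Calls over all genes moved as well. In ΔPod they ran from 23 without WT 3 to 411 without ΔPod 3, against 178 in the main fit. In K2A they ran from 3 without WT 1 to 291 without ΔPod 3, against 153. Over all alternatives run, none of the 6 called members changed its direction against WT. Their calls did not all hold. The tallies and ranges that follow include the fits within each length class, where a group is a lone library. A lone library has no spread of its own, so a pass in those fits is no call. Slc22a29 passed in 19 of 21 alternatives in ΔPod (log2 fold change 4.35 to 4.87) and in 16 of 21 in K2A (2.84 to 4.22), with adjusted p (edgeR or DESeq2) of up to 0.0531 and 0.0894. Slc22a27 passed in 13 of 21 in ΔPod (3.39 to 4.70), and in K2A, where it was not called, it ran more widely, at 1.16 to 3.87. Slc22a30 passed in 10 of 21 in ΔPod (-4.84 to -2.83, adjusted p up to 0.207, edgeR) and in 13 of 21 in K2A (-4.50 to -3.58). For Slc22a29, Slc22a27 and Slc22a30, 1 of the 21 alternatives is the fit of the summed pair, entered under each gene. Under Slc22a27 that fit mostly reflects the counts of Slc22a29. The ends 4.70 and 3.87 given for Slc22a27, and -2.83 and -3.58 given for Slc22a30, are values of the summed pairs and not of the single genes. Slc22a12 passed in 10 of 20 in ΔPod (-2.30 to -1.89), Slco1a1 in 14 of 20 in ΔPod (-13.38 to -12.00), and Slc22a22 in 11 of 20 in K2A (-2.46 to -1.64).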

How the data were processed

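Polyadenylated RNA of 9 whole kidney samples had been sequenced from ScriptSeq v2 libraries, a kit that marks strand, per the labels' protocols. The authors deposited raw counts by symbol, in 1 table for ΔPod with WT and another for K2A with WT. STAR 2.7.3a, featureCounts 2.0.1 and the build mm10 are named in the submitters' processing notes, without roles; the strand setting and the handling of multiply matching reads are not given in the sources used here. Of 52163 shared symbols, 3 with differing WT counts were left out.

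All 9 libraries were fitted together with edgeR 4.0.16 and limma 3.58.1 in R 4.3.3 (TMM factors, filterByExpr, quasi-likelihood test, group term). P-values were adjusted by Benjamini-Hochberg over all 18067 genes that were tested, a call is an adjusted p under 0.05, and printed adjusted p are from this test unless said otherwise. Standard errors are the log2 fold change over the root of F. The fit was tested on simulated counts first. Floors and intervals are not given, since no group lacked all counts of a gene with a printed fold change. Levels between genes use CPM per kilobase of union exonic length from GENCODE vM21. Copies were compared with blastn 2.17.0 and by shared 50-base stretches of the longest transcripts; protein sequences were not used here.

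Groups were taken from the labels. The genes, lists, tests and naming rule were chosen with earlier results of these data known. The rule gives values in all libraries for members called in any comparison and for the 10 tested members with the highest CPM per kilobase, and names other members with an unadjusted p under 0.05 and called partner and regulator genes; some of these genes are not reported here. Values per library for Slc22a28 and Slc22a19, and Slc22a23, Slco2a1 and Hnf4a, were added after their values were seen. Of 20 proximal tubule markers, 3 fell in ΔPod and 2 in K2A. Lists of liver, testis, choroid plexus and brain endothelium, adipocyte and urothelium markers gave 0 called genes in any comparison. Only 1 of 7 testis and 8 of 12 liver markers were tested. Of 7 tested adipocyte markers, 6 had an unadjusted p under 0.05 (edgeR) in each mutant against WT. Their list had a median log2 fold change of 7.45 in ΔPod and 9.82 in K2A. The lack of calls thus does not show that such tissue was absent.

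Same-numbered libraries were checked for pairing by the correlation of their deviations from the group means over all tested genes. It was -0.62, 0.44 and 0.71 between ΔPod and WT, -0.54, 0.76 and 0.71 between K2A and WT, and 0.76, 0.40 and 0.85 between K2A and ΔPod, so only the mutants met the rule for pairing, which rests on these values and not on the labels. Alternatives were other scalings and filters, DESeq2 1.42.0, the replicate block, length class, subsets of libraries and leaving out each library; the length slope as a covariate and the summed pairs of copies were chosen after seeing the data.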

Additional observations from a re-analysis of the deposited data

How the results depend on the processing

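The count of members called (5 in ΔPod and 3 in K2A against WT, 0 in K2A against ΔPod) was 11, 13 and 0 with DESeq2, 12, 12 and 0 with the length class as a term, and 14, 17 and 0 with the length slope as a covariate. The libraries of higher long transcripts alone gave 21, 22 and 9, with lone mutant libraries assumed to vary like WT. The other 5 libraries gave 3 and 2 against WT, and the 6 libraries compared gave 3 for ΔPod. Without a filter, K2A gave 5. Over all genes the counts were 178, 153 and 0, and became 774, 754 and 13 with DESeq2, 715 and 739 (against WT) with the class term, 2544, 2854 and 32 with the slope, 4162, 5647 and 1677 in the libraries of higher long transcripts, 46 and 27 in the other 5, and 54 for ΔPod in the 6 compared. Leaving out each library gave 0 to 7 members in ΔPod, 0 to 5 in K2A and 0 to 0 between the mutants, and 23 to 411, 3 to 291 and 0 to 2 genes. Many of these counts, though not all, moved by over 1.5 times, and the cause was not tested. Members called between the mutants stayed at 0 with DESeq2, the class term and the slope. With fewer libraries, fewer samples enter each fit.

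With the replicate block, 8 members and 270 genes passed in ΔPod and 6 members and 232 genes in K2A against WT, where the samples share only a number, and 0 of either between the mutants, where the paired fit changed no call.

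Directions reversed in the libraries of higher long transcripts for Slc22a8, at 0.75 in ΔPod and 0.43 in K2A, and for Slc22a5 in K2A, at 0.37, and the cause was not tested. Library size alone as the scale moved the median of all genes to 0.11 in ΔPod and 0.17 in K2A. For the 9 members that were not tested, with 0 to 6 counts in a library, low depth and absence of the transcript cannot be told apart.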
